A study of Arabidopsis thaliana with 8 samples.

Results

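The early auxin response genes described here belong to 3 families, the Aux/IAA repressors, the small auxin up RNAs (SAUR) and the GH3 enzymes, in whole seedlings of Arabidopsis thaliana. The members were taken by name from the count tables, as every gene named IAA, SAUR or GH3. with a number, plus SHY2, AXR3 and DFL1, the names in the tables of IAA3, IAA17 and GH3.6. AXR2 and SLR were also looked for, and these genes are listed in the tables as IAA7 and IAA14. This gave 75 of 33028 gene names, 26 of them Aux/IAA, 43 SAUR and 6 GH3. A further 43 genes that the annotation places in these families carry other names in the tables, such as those of genome clones, and are not members. Without JAR1 and PBS3, GH3 enzymes that act on jasmonate and in salicylate synthesis, 41 were left and 37 of them were tested. Against WT 5 of the 37 (13.5%) were called, with an adjusted p under 0.05, in HRE1α OX, 14 (37.8%) in the HRE1β-labelled and 14 (37.8%) in the AtRH17-labelled libraries, beside 3.36%, 22.9% and 30.8% of all tested genes.

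Gene counts came from 3′ mRNA sequencing of 8 libraries, 2 each of HRE1α OX, HRE1β OX, AtRH17 OX and WT. All groups were of the Col-0 ecotype, 14 days after germination by the labels, untreated, and grown on agar plates at 22 °C under short days of 8 h light and 16 h dark. The study's methods give a younger age. HRE1α and HRE1β are splice variants of HRE1, an ethylene response factor of the low oxygen response, and AtRH17 encodes a DEAD-box RNA helicase. The HRE1α line came from an earlier study and the HRE1β construct from the open reading frame of that variant in a binary vector. The promoters of these transgenes, the number of lines pooled, and the making of AtRH17 OX are not given in the sources used here. Nothing in the labels says that the libraries of a group came from separate sets of plants, so each p-value measures only the spread between these libraries, which may be technical.

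Counts per library totalled 25657217 to 30606058. HRE1 had 4424 and 5397 counts in HRE1α OX, 916 and 1057 counts in the libraries labelled HRE1β OX, and 1401 and 1115 counts in WT. The log2 fold change of HRE1 was 2.05 ± 0.12 (SE, n = 2 libraries each) in HRE1α OX against WT and -0.37 ± 0.12 in HRE1β OX against WT. A tag at the 3′ end need not count a transgene that holds only the reading frame, so this is no check of the HRE1β label. By quantitative RT-PCR with primers for that variant, the study reported HRE1β raised in HRE1β OX seedlings, which these counts cannot show. AtRH17 had 144 and 124 counts in the libraries labelled AtRH17 OX, against 259 and 242 counts in WT, which goes against that label unless the transgene lacks the counted 3′ end, and its construct is not given in the sources used here. Both groups are therefore called HRE1β-labelled and AtRH17-labelled here. The summed level of 8 shoot markers was 22280 to 23180 CPM (counts scaled to library size) in HRE1α OX, 27480 to 30080 CPM in the HRE1β-labelled and 30340 to 31240 CPM in the AtRH17-labelled libraries, against 17310 to 19870 CPM in WT. That of 10 root markers was 3774 to 4442 CPM in the AtRH17-labelled libraries and 2096 to 2359 CPM in the other 6. Of these 10, PYK10, AGP30 and CASP1 were called higher there than in WT, and EXPA18 and SHR lower. The median log2 fold change of the list was -0.09, beside -0.008 over all tested genes, so the sum does not stand for each marker. The summed level of 11 seed markers was 99.5 and 28.8 CPM in the HRE1β-labelled libraries and at most 0.995 CPM in the other 6. None of the 3 marker lists was at 0 in every library, and their part in the results below was not tested. In whole seedlings, fewer cells of a type and less RNA per cell cannot be told apart.

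Auxin acts by removing repressors. Aux/IAA proteins bind auxin response factors (ARFs) and recruit TOPLESS co-repressors, and auxin joins them to the TIR1/AFB receptors, which mark them for destruction. The freed ARFs then switch on genes within minutes, among them Aux/IAA genes themselves, SAUR genes and GH3 genes. Some SAUR proteins promote cell expansion by activating proton pumps of the plasma membrane. GH3 enzymes attach amino acids to auxin and so remove it. The families therefore hold repressors, growth effectors and enzymes of a feedback loop that serve as common readouts of auxin response in seedlings.

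ARFs bind auxin response elements with the core TGTC. The letters TGTCTC, on either strand, were found within 250 bases before and 50 bases after the annotated start of 12 of 26 Aux/IAA, 5 of 43 SAUR and 2 of 6 GH3 members. Over all 32453 nuclear genes with a locus, 14.2% of such windows held them. The letters TGTCGG, the form ARFs bind most tightly in vitro, were found in 5 Aux/IAA, 2 SAUR and 0 GH3 members and in 5.01% of all genes. The G-box CACGTG, bound by light-regulated transcription factors, was found in 5 Aux/IAA, 1 SAUR and 0 GH3 members and in 7.02% of all genes. GCCGCC, the GCC box of ethylene response factors, was found in 0 of 75 members and in 2.59% of all genes. The elements of the first and second form share their first letters, the G-box reads the same on both strands, and matches were counted for each motif apart, whether or not they overlapped. A match is only a description, and no match says only that the letters are not in this window.

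The 250 bases before the annotated start are shown for 5 members whose values are given below, because they carry different elements or none. Capitals mark the G-box and the auxin response element of the first form, which reads GAGACA where it lies on the other strand. Sequences and coordinates are from RefSeq, build TAIR10.1, and each is written 5′ to 3′ on the strand of the gene. IAA20 (chr2:19307464-19307713, forward strand) holds a G-box 113 bases and an auxin response element 69 bases before its start. IAA8 (chr2:9636096-9636345, forward strand) holds 1 auxin response element, 176 bases before its start. SAUR20 (chr5:5966786-5967035, reverse strand) and SAUR22 (chr5:5975088-5975337, reverse strand) share a run of 41 bases that begins 51 bases before the start of SAUR20 and 141 bases before that of SAUR22, and it holds the auxin response element, 25 and 115 bases before these starts. DFL1 (chr5:22133689-22133938, reverse strand) holds none of the 4 motifs.
IAA20: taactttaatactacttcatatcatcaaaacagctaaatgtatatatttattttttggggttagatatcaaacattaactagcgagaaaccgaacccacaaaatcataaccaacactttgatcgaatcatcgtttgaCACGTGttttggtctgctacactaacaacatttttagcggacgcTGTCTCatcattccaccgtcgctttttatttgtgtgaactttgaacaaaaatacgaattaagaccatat
IAA8: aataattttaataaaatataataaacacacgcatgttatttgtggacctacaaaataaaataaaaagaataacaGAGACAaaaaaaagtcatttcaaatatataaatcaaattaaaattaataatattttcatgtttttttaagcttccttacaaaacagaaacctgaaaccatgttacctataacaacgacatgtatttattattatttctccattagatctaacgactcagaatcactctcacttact
SAUR20: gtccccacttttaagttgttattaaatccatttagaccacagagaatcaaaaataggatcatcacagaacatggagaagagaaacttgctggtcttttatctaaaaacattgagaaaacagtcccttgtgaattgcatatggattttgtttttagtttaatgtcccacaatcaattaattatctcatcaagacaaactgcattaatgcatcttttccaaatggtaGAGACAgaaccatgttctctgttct
SAUR22: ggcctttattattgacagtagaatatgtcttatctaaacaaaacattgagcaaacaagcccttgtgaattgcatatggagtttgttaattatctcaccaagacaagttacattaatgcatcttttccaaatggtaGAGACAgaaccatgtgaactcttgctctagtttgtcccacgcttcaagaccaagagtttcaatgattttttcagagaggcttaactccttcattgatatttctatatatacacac
DFL1: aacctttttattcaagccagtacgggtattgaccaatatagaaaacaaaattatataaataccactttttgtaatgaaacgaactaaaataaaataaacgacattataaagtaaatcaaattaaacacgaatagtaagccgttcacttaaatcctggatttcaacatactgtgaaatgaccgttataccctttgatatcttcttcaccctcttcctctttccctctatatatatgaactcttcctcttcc

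Of the 75 members, 67 had enough counts to be tested, 24 Aux/IAA, 38 SAUR and 5 GH3. IAA15, IAA33, GH3.4, SAUR18, SAUR34, SAUR39, SAUR48 and SAUR73 did not pass the filter, and SAUR18 and SAUR39 were at 0 counts in every library. There, 3 counts in a library correspond to 0.098 to 0.117 CPM before scaling with TMM factors. Levels are given as CPM scaled with TMM factors, a 3′ tag measure that is not divided by gene length because a transcript gives its read at the end whatever its length. The median level of the tested Aux/IAA members was 17.8 CPM, that of SAUR 2.69 CPM and that of GH3 11.2 CPM, and over all 22602 tested genes it was 9.16 CPM. A gene was called where edgeR's quasi-likelihood test gave a Benjamini-Hochberg adjusted p under 0.05 over all tested genes, with no limit on the fold.

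Against WT, 9 of 24 Aux/IAA genes fell in the HRE1β-labelled seedlings, and DFL1 fell in the AtRH17-labelled seedlings. SAUR78, the most abundant SAUR member, fell in all 3 lines, but its call in HRE1α OX was lost without either library of that line. In HRE1α OX 5 of 67 members (7.46%) were called, beside 3.36% of all tested genes. Of these 1 was higher and 4 were lower, beside 1.57% and 1.8% of all genes. In the HRE1β-labelled libraries 17 members (25.4%) were called, beside 22.9% of all genes, 4 of them higher and 13 lower, beside 11.2% and 11.6%. In the AtRH17-labelled libraries 22 members (32.8%) were called, beside 30.8% of all genes, 8 of them higher and 14 lower, beside 15.3% and 15.5%. The shares of members called in the HRE1β-labelled and AtRH17-labelled libraries were near those of all genes. Past 2-fold as well, 1, 6 and 8 members were called in these 3 comparisons in turn, beside 0.496%, 4.88% and 6.72% of all genes.

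By family, the Aux/IAA members called in the HRE1β-labelled libraries against WT were 1 higher and 9 lower of 24, and the median log2 fold change of the family was -0.28, beside 0.00 over all tested genes. In the AtRH17-labelled libraries 2 were higher and 7 lower with a median of -0.01, and in HRE1α OX 1 was lower with a median of 0.06. The SAUR members called were 1 higher and 2 lower of 38 in HRE1α OX, 2 higher and 4 lower in the HRE1β-labelled and 5 higher and 6 lower in the AtRH17-labelled libraries. Of the 33 tested SAUR genes listed under other names, which are not members, 3 were higher and 2 lower in HRE1α OX. In the HRE1β-labelled libraries 7 of them were higher and 5 lower, and in the AtRH17-labelled libraries 10 and 3. Of the SAUR members 7.89%, 15.8% and 28.9% were called in these lines in turn, and of the SAUR genes under other names 15.2%, 36.4% and 39.4%. All tested genes came to 3.36%, 22.9% and 30.8%, with 1.57%, 11.2% and 15.3% higher and 1.8%, 11.6% and 15.5% lower. The SAUR counts are small, and no direction is read from them. Of 5 GH3 members 1 was lower in HRE1α OX, 1 higher in the HRE1β-labelled libraries, and 1 higher and 1 lower in the AtRH17-labelled libraries. These comparisons share the 2 WT libraries.

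**Figure D1:**
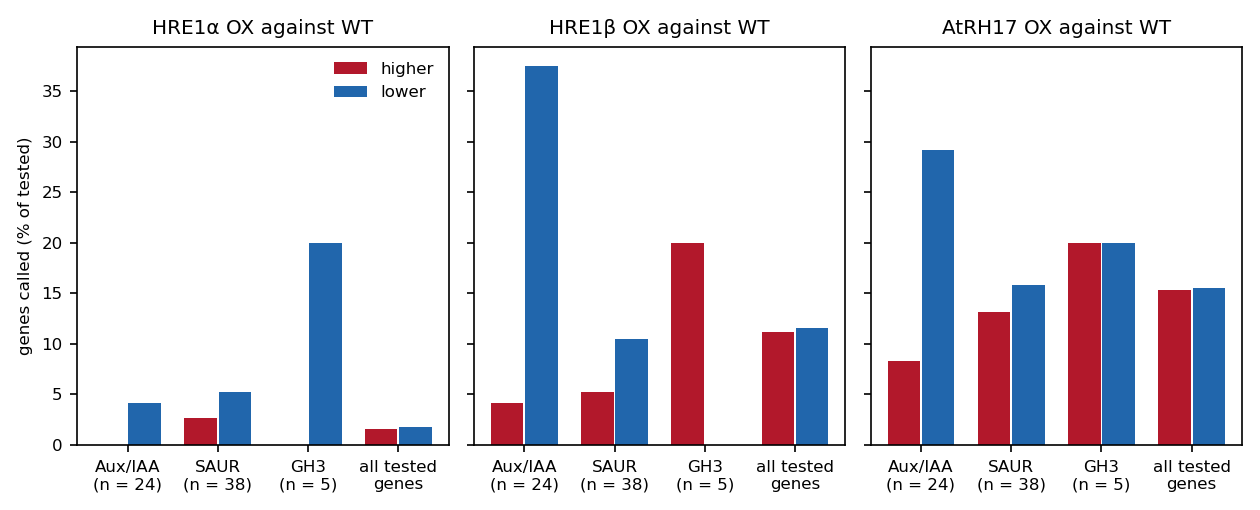
Share of tested genes called higher (red) or lower (blue) than WT in each line, in percent, for the 3 families and for all 22602 tested genes, with groups named by their labels. The tallest bar is that of Aux/IAA genes lower in the HRE1β-labelled libraries, 9 of 24, where 11.6% of all genes were lower.

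How far these counts rested on single libraries was measured by leaving each out. Here and below, only libraries of the 2 groups compared were left out. Without HRE1β OX replicate 1, the library with the higher seed marker level, 9 members were called against WT, beside 14.4% of all genes, and the Aux/IAA count was 1 higher and 1 lower. Without HRE1β OX replicate 2, where 14.8% of all genes were called, the Aux/IAA count was 1 higher and 6 lower. The count in HRE1α OX was 2 without its replicate 1 and, in the edgeR fit without its replicate 2, 0, where 9 members were at an unadjusted p under 0.05. All genes called in these fits came to 1.22% and 1.13%. The count in the AtRH17-labelled libraries was 12 without replicate 1 and 15 without replicate 2, beside 22.3% and 21.2% of all genes. Without replicate 1, the Aux/IAA count there was 2 higher and 3 lower and the SAUR count 3 higher and 2 lower. Without replicate 2, these were 2 higher and 5 lower, and 3 higher and 4 lower. A library that then stands alone in its group was assumed to vary like the others.

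**Figure D2:**
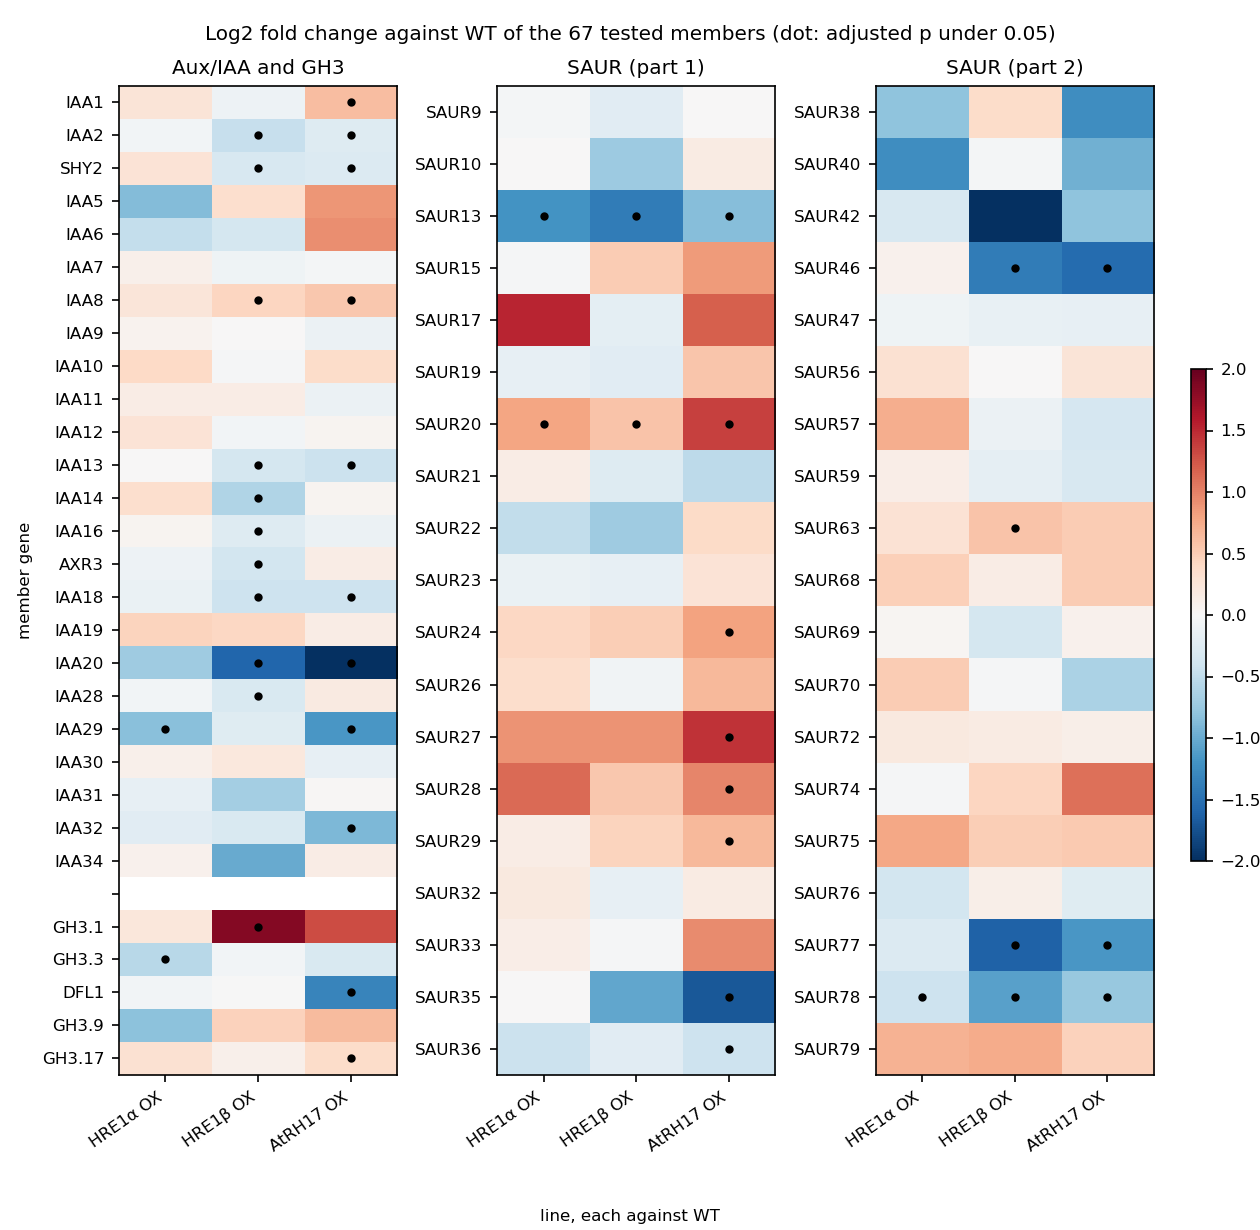
Log2 fold change against WT of the 67 tested members in each line, from blue (lower than WT) to red (higher), with colours ending at ±2 and a dot where the gene was called. SAUR13, SAUR20 and SAUR78 carry a dot in all 3 lines, and in the HRE1β OX column most dots of the Aux/IAA block lie on blue.

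Among the Aux/IAA repressors, IAA7 (AXR2), IAA2 and IAA16 had the highest levels, with means of 173.4, 166.5 and 144.3 CPM over the 8 libraries. IAA7 had 186.4 and 187.3 CPM in the HRE1α OX, 167.6 and 159.3 CPM in the HRE1β-labelled and 161.8 and 175.9 CPM in the AtRH17-labelled libraries, against 173.6 and 175.1 CPM in WT. It was called in none of the 6 comparisons between groups. IAA2 had 171.6 and 190.8 CPM in the HRE1α OX, 138.5 and 136.8 CPM in the HRE1β-labelled and 146.0 and 170.4 CPM in the AtRH17-labelled libraries, against 191.5 and 186.3 CPM in WT. The HRE1β-labelled libraries lay below all others, with a log2 fold change against WT of -0.46 ± 0.09 (adjusted p = 1.5e-04), kept with any 1 library left out. The AtRH17-labelled value was -0.26 ± 0.09 (adjusted p = 0.021), lost without AtRH17 OX replicate 1 (adjusted p = 0.353) and also with upper-quartile factors or a fit of only the groups compared. IAA16 had 161.3 and 153.7 CPM in the HRE1α OX, 122.9 and 131.3 CPM in the HRE1β-labelled and 129.6 and 151.6 CPM in the AtRH17-labelled libraries, against 152.6 and 151.2 CPM in WT. Both HRE1β-labelled libraries lay below WT, with a log2 fold change of -0.26 ± 0.08 (adjusted p = 0.0266), lost without HRE1β OX replicate 1 or HRE1β OX replicate 2 (adjusted p up to 0.226) and also with upper-quartile factors or a fit of only the groups compared.

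SHY2 (IAA3) and AXR3 (IAA17) lie close together on chromosome 1, and stabilizing mutations of either repressor alter the growth of hypocotyls and roots. SHY2 had 74.2 and 75.2 CPM in the HRE1α OX, 48 and 51.2 CPM in the HRE1β-labelled and 45.8 and 56.4 CPM in the AtRH17-labelled libraries, against 57.3 and 66.4 CPM in WT. The HRE1α OX libraries lay above WT, and the HRE1β-labelled and AtRH17-labelled libraries lay below it. Against HRE1α OX the log2 fold changes of SHY2 were -0.59 ± 0.10 (adjusted p = 8.8e-05) in the HRE1β-labelled and -0.55 ± 0.10 (adjusted p = 1.2e-04) in the AtRH17-labelled libraries, both kept with any 1 library left out. Against WT the HRE1β-labelled value was -0.32 ± 0.10 (adjusted p = 0.021), lost without WT replicate 2, HRE1β OX replicate 1 or HRE1β OX replicate 2 (adjusted p up to 0.183) and also with upper-quartile factors. The AtRH17-labelled value was -0.28 ± 0.10 (adjusted p = 0.0363), lost without WT replicate 2 or AtRH17 OX replicate 1 (adjusted p up to 0.49) and also with DESeq2, upper-quartile factors or a fit of only the groups compared. AXR3 had 91.8 and 86.7 CPM in the HRE1α OX, 69.2 and 79.9 CPM in the HRE1β-labelled and 106.5 and 106.7 CPM in the AtRH17-labelled libraries, against 98.6 and 93 CPM in WT. It was lowest in the HRE1β-labelled and highest in the AtRH17-labelled libraries, with a log2 fold change between these of 0.52 ± 0.09 (adjusted p = 1.4e-04), kept with any 1 library left out. Against WT the HRE1β-labelled value was -0.36 ± 0.09 (adjusted p = 0.00269), lost without HRE1β OX replicate 1 (adjusted p = 0.117).

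IAA14 (SLR), the repressor whose stabilizing mutation blocks the formation of lateral roots, was lowest in the HRE1β-labelled seedlings. It had 19.2 and 18.6 CPM in the HRE1α OX, 8.39 and 11.2 CPM in the HRE1β-labelled and 16.3 and 14.9 CPM in the AtRH17-labelled libraries, against 13.5 and 16.5 CPM in WT. Its log2 fold change in the HRE1β-labelled libraries was -0.94 ± 0.15 (adjusted p = 4.2e-05) against HRE1α OX, kept with any 1 library left out. Against WT it was -0.61 ± 0.15 (adjusted p = 0.00373), lost without WT replicate 2 or HRE1β OX replicate 1 (adjusted p up to 0.137). IAA28, also a repressor of lateral root formation, had 61.9 and 63.6 CPM in the HRE1α OX, 51.5 and 53.7 CPM in the HRE1β-labelled and 68.7 and 78.9 CPM in the AtRH17-labelled libraries, against 71.5 and 58.3 CPM in WT. The HRE1β-labelled libraries were again the lowest, with -0.30 ± 0.10 (adjusted p = 0.0256) on the log2 scale against WT, lost without WT replicate 1, HRE1β OX replicate 1 or HRE1β OX replicate 2 (adjusted p up to 0.337) and also with upper-quartile factors or a fit of only the groups compared. The difference between the AtRH17-labelled and HRE1β-labelled libraries was 0.49 ± 0.10 (adjusted p = 0.00106), lost without AtRH17 OX replicate 2 (adjusted p = 0.0586).

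IAA8 and IAA1 were the Aux/IAA members that rose against WT. IAA8, whose upstream bases are shown above, had 61.6 and 63.8 CPM in the HRE1α OX, 73.5 and 69.5 CPM in the HRE1β-labelled and 73.7 and 81.3 CPM in the AtRH17-labelled libraries, against 53.2 and 53 CPM in WT. All 6 libraries of the lines were above both WT libraries. The log2 fold change was 0.43 ± 0.09 (adjusted p = 5.7e-04) in the HRE1β-labelled and 0.54 ± 0.09 (adjusted p = 1.8e-05) in the AtRH17-labelled libraries, both kept with any 1 library left out, and 0.24 ± 0.09 (adjusted p = 0.176) in HRE1α OX, which did not pass. IAA1 had 20.6 and 22.1 CPM in the HRE1α OX, 17.6 and 15.7 CPM in the HRE1β-labelled and 27.4 and 27.5 CPM in the AtRH17-labelled libraries, against 22 and 13.8 CPM in WT. The WT libraries lay far apart, and the AtRH17-labelled libraries were above all others. Its rise there was 0.62 ± 0.16 (adjusted p = 0.00348) against WT, lost without WT replicate 2 (adjusted p = 0.0977), and 0.72 ± 0.16 (adjusted p = 0.00267) against the HRE1β-labelled libraries, kept with any 1 library left out.

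IAA13 and IAA18 fell in both the HRE1β-labelled and the AtRH17-labelled libraries. IAA13 had 65.5 and 62.2 CPM in the HRE1α OX, 48.3 and 51.3 CPM in the HRE1β-labelled and 51 and 44 CPM in the AtRH17-labelled libraries, against 61.6 and 65.7 CPM in WT. Its log2 fold change was -0.35 ± 0.10 (adjusted p = 0.00617) in the HRE1β-labelled libraries, lost without HRE1β OX replicate 1 (adjusted p = 0.0904). The value in the AtRH17-labelled libraries was -0.42 ± 0.10 (adjusted p = 9.5e-04), lost without AtRH17 OX replicate 2 (adjusted p = 0.0527). IAA18 had 32.3 and 31.1 CPM in the HRE1α OX, 26 and 26.6 CPM in the HRE1β-labelled and 24.3 and 28 CPM in the AtRH17-labelled libraries, against 34.1 and 35.7 CPM in WT. For both genes the WT libraries lay above all 4 libraries of these lines. For IAA18 the log2 fold change was -0.41 ± 0.11 (adjusted p = 0.00611) in the HRE1β-labelled libraries, lost without HRE1β OX replicate 1 (adjusted p = 0.0615), and -0.42 ± 0.11 (adjusted p = 0.00377) in the AtRH17-labelled libraries, lost without AtRH17 OX replicate 1 (adjusted p = 0.0956).

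IAA20 and IAA29 showed larger falls at lower levels. IAA20 lacks the degron through which auxin destroys most Aux/IAA proteins, and its upstream bases are shown above. It had 1.07 and 0.937 CPM in the HRE1α OX, 0.333 and 0.746 CPM in the HRE1β-labelled and 0.247 and 0.407 CPM in the AtRH17-labelled libraries, against 1.74 and 1.54 CPM in WT. WT was the highest group. Its log2 fold change was -2.33 ± 0.60 (adjusted p = 0.00309) in the AtRH17-labelled libraries, kept with any 1 library left out with an adjusted p of up to 0.0498. In the HRE1β-labelled libraries it was -1.58 ± 0.55 (adjusted p = 0.0365), lost without WT replicate 1, WT replicate 2 or HRE1β OX replicate 1 (adjusted p up to 0.285). IAA29, a gene induced by shade through the phytochrome interacting factors (PIFs), had 6.03 and 4.58 CPM in the HRE1α OX, 8.87 and 7.07 CPM in the HRE1β-labelled and 4.02 and 4.44 CPM in the AtRH17-labelled libraries, against 9.81 and 9.09 CPM in WT. All 6 libraries of the lines were below WT. For IAA29 the log2 fold change was -1.16 ± 0.21 (adjusted p = 5.7e-05) in the AtRH17-labelled libraries, kept with any 1 library left out, and -0.83 ± 0.20 (adjusted p = 0.0139) in HRE1α OX, lost without WT replicate 1 or HRE1α OX replicate 2 (adjusted p up to 0.307). In the HRE1β-labelled libraries it was -0.25 ± 0.20 (adjusted p = 0.411), which did not pass. The AtRH17-labelled and HRE1β-labelled libraries differed by -0.91 ± 0.21 (adjusted p = 0.00309), lost without HRE1β OX replicate 1 (adjusted p = 0.0821).

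Of the other tested Aux/IAA members, IAA5, IAA12 and IAA32 were each called in 1 of the 6 comparisons. IAA6, IAA9, IAA10, IAA11, IAA19, IAA30, IAA31 and IAA34 were called in none.

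**Figure D3:**
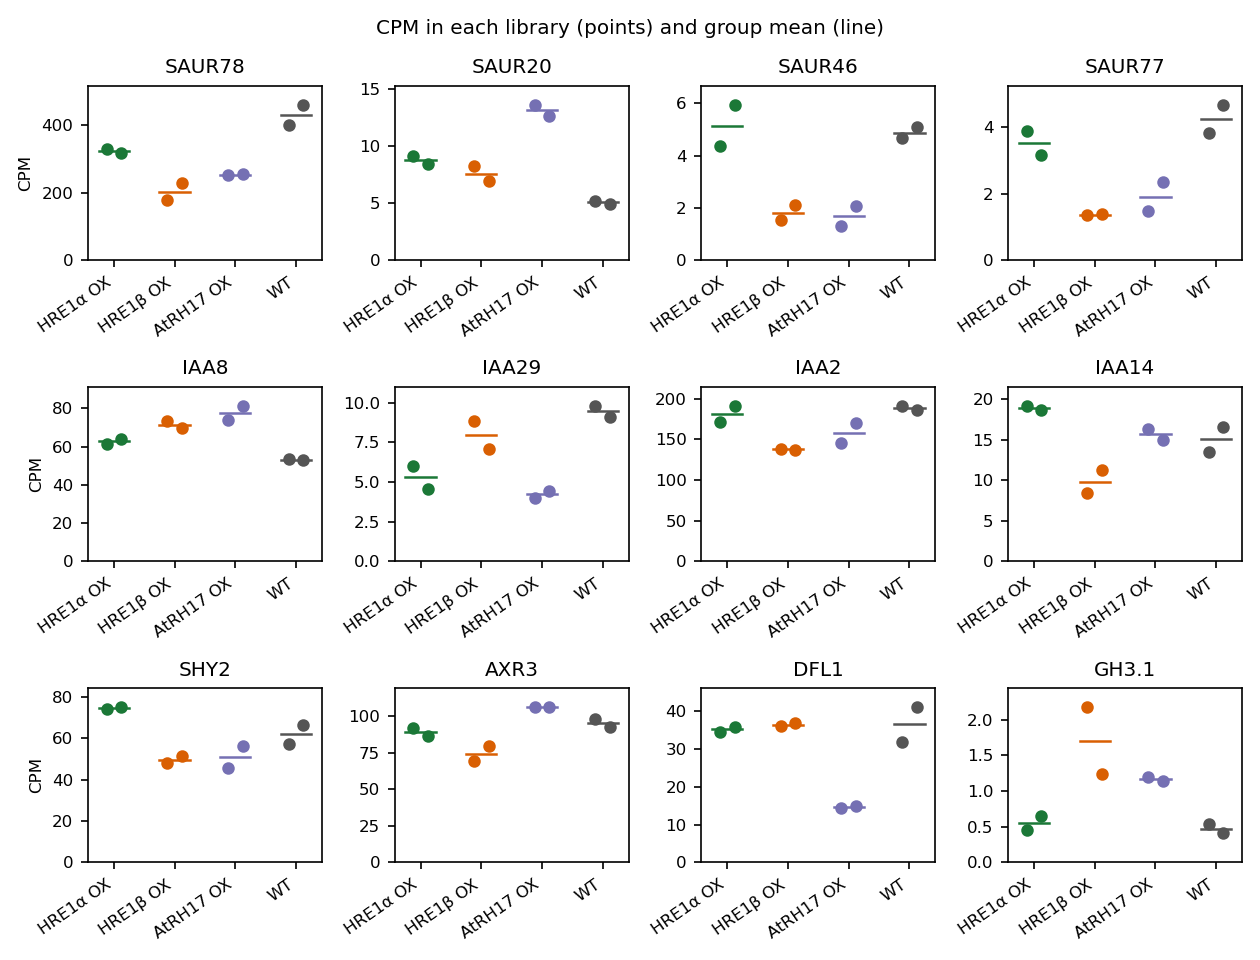
Level in CPM of 12 members in each library (points) with the mean of the 2 libraries (line), by group, each axis starting at 0 and groups named by their labels. The 2 AtRH17 OX points of DFL1 (14.4 and 14.8 CPM) lie below the other 6, and the 2 WT points of SAUR78 (401.3 and 460.0 CPM) lie above the other 6.

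SAUR78 (AT1G72430, chromosome 1, 27264602 to 27265806, reverse strand, TAIR10.1) had the highest level of all SAUR members, with a mean of 302.5 CPM, and lies 21633 bases from HRE1, the gene overexpressed in the first line. It had 328.7 and 318.3 CPM in the HRE1α OX, 177.2 and 227.7 CPM in the HRE1β-labelled and 252.3 and 254.6 CPM in the AtRH17-labelled libraries, against 401.3 and 460.0 CPM in WT. No line overlapped WT, and no line overlapped another. The log2 fold changes were -1.09 ± 0.10 (adjusted p = 2.8e-09) in the HRE1β-labelled and -0.76 ± 0.09 (adjusted p = 5.6e-07) in the AtRH17-labelled libraries, both kept with any 1 library left out. In HRE1α OX the value was -0.41 ± 0.09 (adjusted p = 0.00979), lost without HRE1α OX replicate 1 or HRE1α OX replicate 2 (adjusted p up to 0.203). Against HRE1α OX the HRE1β-labelled libraries were lower, with -0.68 ± 0.09 (adjusted p = 1.1e-05) on the log2 scale, kept with any 1 library left out. The SAUR sum was 356.4 and 396.4 CPM in the HRE1β-labelled libraries, against 574.4 and 664.3 CPM in WT. Without SAUR78 it was 179.2 and 168.7 CPM in the HRE1β-labelled libraries, against 173.1 and 204.3 CPM in WT.

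SAUR46 and SAUR77 fell in the HRE1β-labelled and AtRH17-labelled libraries. SAUR46 had 4.35 and 5.95 CPM in the HRE1α OX, 1.55 and 2.11 CPM in the HRE1β-labelled and 1.3 and 2.08 CPM in the AtRH17-labelled libraries, against 4.66 and 5.09 CPM in WT. HRE1α OX and WT overlapped, and the other lines lay below both. The log2 fold changes against WT were -1.41 ± 0.30 (adjusted p = 5.9e-04) in the HRE1β-labelled and -1.54 ± 0.30 (adjusted p = 1.9e-04) in the AtRH17-labelled libraries, and those against HRE1α OX were -1.49 ± 0.30 (adjusted p = 5.1e-04) and -1.62 ± 0.30 (adjusted p = 1.4e-04). All 4 calls were kept with any 1 library left out. SAUR77 had 3.9 and 3.17 CPM in the HRE1α OX, 1.37 and 1.39 CPM in the HRE1β-labelled and 1.48 and 2.36 CPM in the AtRH17-labelled libraries, against 3.84 and 4.68 CPM in WT. Its log2 fold change was -1.62 ± 0.32 (adjusted p = 2.7e-04) in the HRE1β-labelled libraries, kept with any 1 library left out, and -1.16 ± 0.31 (adjusted p = 0.00458) in the AtRH17-labelled libraries, lost without AtRH17 OX replicate 1 (adjusted p = 0.106).

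SAUR13 was lower in all 3 lines, but its counts cannot be told apart from those of another gene. It had 94 and 72 counts in the HRE1α OX, 73 and 82 counts in the HRE1β-labelled and 109 and 97 counts in the AtRH17-labelled libraries, against 167 and 239 counts in WT. T9A14.100, on the other strand over 433 of the 485 bases of SAUR13, had 94 and 71 counts in the HRE1α OX, 73 and 81 counts in the HRE1β-labelled and 109 and 95 counts in the AtRH17-labelled libraries, against 166 and 239 counts in WT. The genes differed by at most 2 counts in any library, and 4 of the 8 counts were equal. SAUR13 had a log2 fold change of -1.40 ± 0.26 (adjusted p = 1.2e-04) in the HRE1β-labelled libraries, kept with any 1 library left out. In HRE1α OX it was -1.19 ± 0.25 (adjusted p = 0.00415), lost without WT replicate 2 or HRE1α OX replicate 2 (adjusted p up to 0.174). In the AtRH17-labelled libraries it was -0.86 ± 0.25 (adjusted p = 0.00866), lost without WT replicate 2, AtRH17 OX replicate 1 or AtRH17 OX replicate 2 (adjusted p up to 0.144).

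In all, 12 members overlap another annotated gene. The counts of AT1G29435, which spans SAUR63, came to 103% of the SAUR63 counts, those of AT1G04230, which overlaps SHY2 by 640 bases, to 106%, and those of F10A8.9, which overlaps IAA32 by 826 bases, to 86.5%. The values of SHY2, SAUR63 and IAA32 therefore share the limit of SAUR13. For IAA13 the partner F4P9.7 had at most 2 counts in a library. Among the 55 tested members without such an overlap, 4 (7.27%) were called in HRE1α OX, 13 (23.6%) in the HRE1β-labelled and 18 (32.7%) in the AtRH17-labelled libraries against WT, beside 3.36%, 22.9% and 30.8% of all tested genes. SAUR63 had 179 and 214 counts in the HRE1β-labelled libraries, against 124 and 138 counts in WT, with a log2 fold change of 0.57 ± 0.21 (adjusted p = 0.0454), lost without WT replicate 1, WT replicate 2, HRE1β OX replicate 1 or HRE1β OX replicate 2 (adjusted p up to 0.185) and also with DESeq2, no filter on low counts or a fit of only the groups compared.

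**Figure D4:**
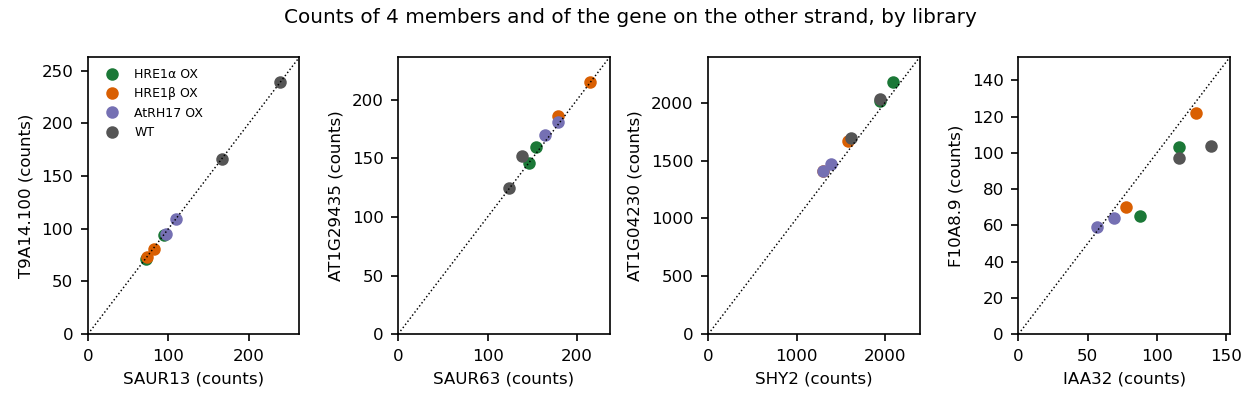
Counts of SAUR13, SAUR63, SHY2 and IAA32 (x axis) and of the overlapping gene on the other strand (y axis) in the 8 libraries, with groups named by their labels and a dotted line where both are equal. The points of SAUR13 lie within 2 counts of the line.

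SAUR19 to SAUR24 stand in tandem on chromosome 5, and proteins of this group promote cell expansion in hypocotyls and leaves. Windows of 75 bases, the read length, were found unchanged elsewhere in the genome for at most 2.5% of positions in these members, in SAUR19. The search asked for exact matches, so it cannot show reads shared between copies that differ in some bases. Outside this group the share was 22.7% in SAUR63, 27.6% in SAUR68 and 19.5% in SAUR75, whose counts can therefore hold reads of other genes. The gene between SAUR20 and SAUR22 is listed as MCM23.13 and is SAUR21 in the annotation, whereas the row named SAUR21 belongs to AT5G01830, annotated as an ARM repeat protein. SAUR20 had 9.13 and 8.43 CPM in the HRE1α OX, 8.21 and 6.94 CPM in the HRE1β-labelled and 13.6 and 12.6 CPM in the AtRH17-labelled libraries, against 5.23 and 4.96 CPM in WT. All 6 libraries of the lines were above WT. The log2 fold change was 1.36 ± 0.18 (adjusted p = 4.8e-07) in the AtRH17-labelled libraries, kept with any 1 library left out. In HRE1α OX it was 0.79 ± 0.18 (adjusted p = 0.00849), lost without HRE1α OX replicate 1 or HRE1α OX replicate 2 (adjusted p up to 0.135). In the HRE1β-labelled libraries it was 0.57 ± 0.18 (adjusted p = 0.0216), lost without WT replicate 2 or HRE1β OX replicate 1 (adjusted p up to 0.213) and also with a fit of only the groups compared. The AtRH17-labelled libraries were higher than the HRE1β-labelled libraries by 0.79 ± 0.17 (adjusted p = 0.00197), lost without HRE1β OX replicate 2 (adjusted p = 0.0625), and than HRE1α OX by 0.58 ± 0.17 (adjusted p = 0.0121), lost without HRE1α OX replicate 2 or AtRH17 OX replicate 1 (adjusted p up to 0.109).

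SAUR24 had 6.84 and 6.05 CPM in the HRE1α OX, 7.65 and 5.96 CPM in the HRE1β-labelled and 8.77 and 8.1 CPM in the AtRH17-labelled libraries, against 4.69 and 4.96 CPM in WT. All 6 libraries of the lines were above WT, and the rise in the AtRH17-labelled libraries, 0.81 ± 0.20 (adjusted p = 0.00256), passed and was kept with any 1 library left out, while the differences in the other lines did not pass. SAUR22, whose upstream bases share a run with those of SAUR20, had 3.44 and 3.17 CPM in the HRE1α OX, 3.59 and 2.11 CPM in the HRE1β-labelled and 5.14 and 6.92 CPM in the AtRH17-labelled libraries, against 4.12 and 5.13 CPM in WT. It did not pass against WT in any line. The AtRH17-labelled libraries were higher than the HRE1β-labelled libraries by 1.09 ± 0.27 (adjusted p = 0.00628), lost without HRE1β OX replicate 2 or AtRH17 OX replicate 2 (adjusted p up to 0.175), and than HRE1α OX by 0.86 ± 0.27 (adjusted p = 0.0164), lost without HRE1α OX replicate 1, HRE1α OX replicate 2 or AtRH17 OX replicate 2 (adjusted p up to 0.206). SAUR19 had 95 and 96 counts in the AtRH17-labelled libraries, against 63 and 79 counts in WT, and SAUR23 had 102 and 104 counts, against 88 and 98 counts in WT. Neither was called in any comparison. MCM23.13, which is not a member, had 359 and 281 counts in the AtRH17-labelled libraries, against 141 and 163 counts in WT, a log2 fold change of 1.19 ± 0.19 (adjusted p = 1.2e-05).

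**Figure D5:**
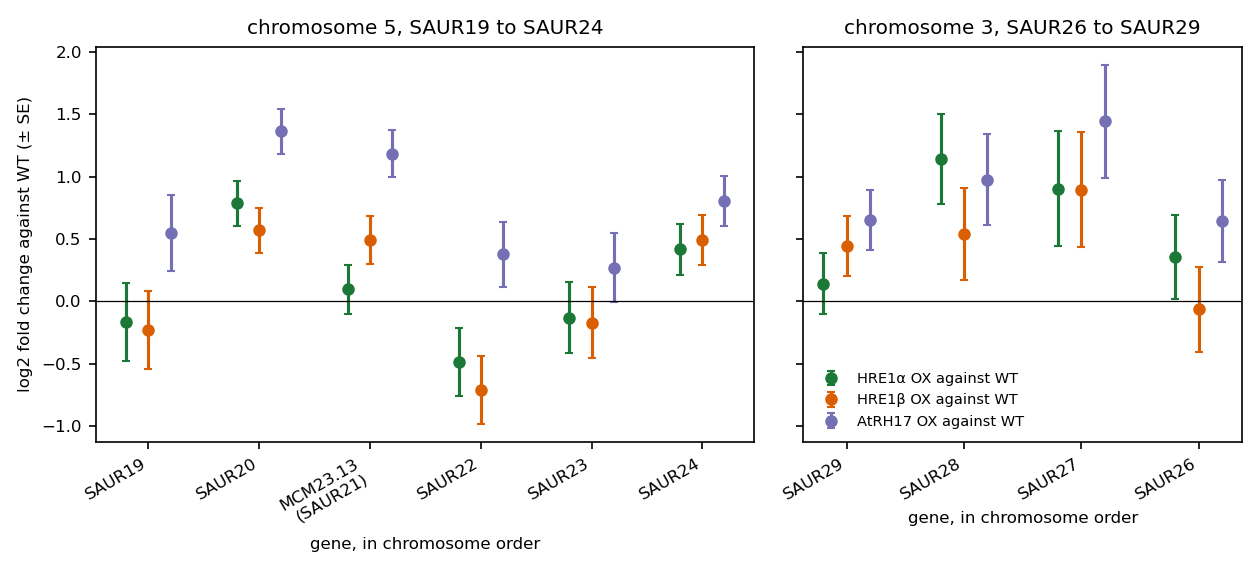
Log2 fold change against WT with its SE for the SAUR genes in tandem on chromosome 5 and chromosome 3, in chromosome order, in HRE1α OX, HRE1β OX and AtRH17 OX as labelled. The AtRH17 OX value is above 0 for all 10 genes shown. Of these SAUR20, SAUR24, SAUR27, SAUR28 and SAUR29 were called in that line, and so was MCM23.13, which is not a member. Of all tested genes 15.3% were called higher there. The calls of SAUR27, SAUR28 and SAUR29 were each lost in some fits with 1 library left out.

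SAUR26 to SAUR29 stand close together on chromosome 3. SAUR27 had 38 and 41 counts in the HRE1α OX, 32 and 53 counts in the HRE1β-labelled and 53 and 59 counts in the AtRH17-labelled libraries, against 12 and 33 counts in WT, and its log2 fold change in the AtRH17-labelled libraries was 1.44 ± 0.45 (adjusted p = 0.0148), lost without WT replicate 1 or AtRH17 OX replicate 2 (adjusted p up to 0.173). SAUR28 had 64 and 84 counts in the HRE1α OX, 57 and 47 counts in the HRE1β-labelled and 74 and 56 counts in the AtRH17-labelled libraries, against 42 and 29 counts in WT, and its log2 fold change in the AtRH17-labelled libraries was 0.98 ± 0.36 (adjusted p = 0.0408), lost without WT replicate 2, AtRH17 OX replicate 1 or AtRH17 OX replicate 2 (adjusted p up to 0.24) and also with DESeq2 or a fit of only the groups compared. In HRE1α OX its value was 1.14 ± 0.36 (adjusted p = 0.0847), larger than that in the AtRH17-labelled libraries, but it did not pass. SAUR29 had 113 and 120 counts in the HRE1α OX, 172 and 134 counts in the HRE1β-labelled and 188 and 139 counts in the AtRH17-labelled libraries, against 99 and 126 counts in WT, and its log2 fold change in the AtRH17-labelled libraries was 0.65 ± 0.24 (adjusted p = 0.0384), lost without WT replicate 1, AtRH17 OX replicate 1 or AtRH17 OX replicate 2 (adjusted p up to 0.219) and also with DESeq2 or a fit of only the groups compared. For these 3 genes both AtRH17-labelled counts lay above both WT counts. SAUR26 had 90 and 55 counts in the HRE1α OX, 64 and 52 counts in the HRE1β-labelled and 106 and 70 counts in the AtRH17-labelled libraries, against 62 and 59 counts in WT, and did not pass.

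SAUR35, SAUR57 and SAUR32 were each called against HRE1α OX. SAUR35 had 2.21 and 1.44 CPM in the HRE1α OX, 0.887 and 0.875 CPM in the HRE1β-labelled and 0.352 and 0.773 CPM in the AtRH17-labelled libraries, against 1.42 and 2.19 CPM in WT. Its log2 fold change in the AtRH17-labelled libraries was -1.69 ± 0.49 (adjusted p = 0.00845) against WT, lost without WT replicate 2 or AtRH17 OX replicate 1 (adjusted p up to 0.143), and -1.71 ± 0.49 (adjusted p = 0.00999) against HRE1α OX, lost without HRE1α OX replicate 1 or AtRH17 OX replicate 1 (adjusted p up to 0.151). SAUR57 had 3.28 and 4.07 CPM in the HRE1α OX, 1.7 and 2.37 CPM in the HRE1β-labelled and 1.94 and 1.55 CPM in the AtRH17-labelled libraries, against 2.17 and 2.26 CPM in WT. Only the AtRH17-labelled libraries against HRE1α OX passed, with -1.07 ± 0.33 (adjusted p = 0.014), lost without HRE1α OX replicate 2 or AtRH17 OX replicate 2 (adjusted p up to 0.138). SAUR32, the second most abundant SAUR member, had 56.2 and 56.1 CPM in the HRE1α OX, 43.1 and 44.3 CPM in the HRE1β-labelled and 54.9 and 55.2 CPM in the AtRH17-labelled libraries, against 47.2 and 50.8 CPM in WT. It was called in no line against WT. The HRE1β-labelled libraries lay below all others, with -0.36 ± 0.09 (adjusted p = 0.00618) against HRE1α OX, lost without HRE1α OX replicate 1, HRE1α OX replicate 2 or HRE1β OX replicate 1 (adjusted p up to 0.0782). SAUR59, the SAUR member next in level, had 23 and 20.5 CPM in the HRE1α OX, 17.2 and 18.1 CPM in the HRE1β-labelled and 13.3 and 18.6 CPM in the AtRH17-labelled libraries, against 14.2 and 25.6 CPM in WT, where the WT libraries lay far apart. It was 1 of 23 tested SAUR members called in none of the 6 comparisons.

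The GH3 enzymes differed by member. DFL1 (GH3.6, AT5G54510, chromosome 5, 22130964 to 22133688, reverse strand, TAIR10.1), an amido synthetase whose overexpression shortens hypocotyls, had 34.5 and 35.8 CPM in the HRE1α OX, 35.9 and 36.8 CPM in the HRE1β-labelled and 14.4 and 14.8 CPM in the AtRH17-labelled libraries, against 31.8 and 41.1 CPM in WT. The AtRH17-labelled libraries lay below all others, and the WT values lay on both sides of those of HRE1α OX and of the HRE1β-labelled libraries. The log2 fold change in the AtRH17-labelled libraries was -1.32 ± 0.12 (adjusted p = 7.0e-10) against WT, -1.31 ± 0.12 (adjusted p = 4.9e-09) against the HRE1β-labelled libraries and -1.27 ± 0.12 (adjusted p = 3.0e-09) against HRE1α OX. All 3 calls were kept with any 1 library left out. In HRE1α OX against WT it was -0.05 ± 0.12 (adjusted p = 0.901), and the HRE1β-labelled libraries did not pass either (adjusted p = 0.987).

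GH3.17, which joins auxin to glutamate, had the highest GH3 level, with a mean of 33.6 CPM. It had 39.1 and 33 CPM in the HRE1α OX, 30.9 and 31.7 CPM in the HRE1β-labelled and 35.3 and 40.4 CPM in the AtRH17-labelled libraries, against 25.5 and 33 CPM in WT. Its rise in the AtRH17-labelled libraries was 0.37 ± 0.12 (adjusted p = 0.0195), lost without WT replicate 1 or AtRH17 OX replicate 2 (adjusted p up to 0.257). GH3.3, an auxin-induced amido synthetase, had 8.4 and 9.23 CPM in the HRE1α OX, 11.8 and 13.2 CPM in the HRE1β-labelled and 10.5 and 10.5 CPM in the AtRH17-labelled libraries, against 14.2 and 11.8 CPM in WT. The HRE1α OX libraries lay below all others, with a log2 fold change against WT of -0.56 ± 0.16 (adjusted p = 0.0465), lost without WT replicate 1, HRE1α OX replicate 1 or HRE1α OX replicate 2 (adjusted p up to 0.359) and also with DESeq2, upper-quartile factors, a fit of only the groups compared, a fit without AtRH17 OX or organelle genes left out. In those 5 settings its adjusted p reached 0.119. The HRE1β-labelled libraries were higher than HRE1α OX by 0.50 ± 0.16 (adjusted p = 0.0271), lost without HRE1α OX replicate 1, HRE1α OX replicate 2, HRE1β OX replicate 1 or HRE1β OX replicate 2 (adjusted p up to 0.223).

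GH3.1 had 0.458 and 0.649 CPM in the HRE1α OX, 2.18 and 1.23 CPM in the HRE1β-labelled and 1.2 and 1.14 CPM in the AtRH17-labelled libraries, against 0.533 and 0.41 CPM in WT. The HRE1β-labelled libraries lay above all others, with log2 fold changes of 1.84 ± 0.54 (adjusted p = 0.0113) against WT, lost without WT replicate 2 or HRE1β OX replicate 1 (adjusted p up to 0.202), and 1.61 ± 0.53 (adjusted p = 0.0332) against HRE1α OX, lost without HRE1α OX replicate 1, HRE1α OX replicate 2 or HRE1β OX replicate 1 (adjusted p up to 0.37) and also with a fit without AtRH17 OX. The higher of its HRE1β-labelled values was in replicate 1, the library with 99.5 CPM of seed markers, and the part of that difference in its call was not tested. GH3.9 was not called in any comparison, and GH3.4 had at most 1 count in any library.

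Between the lines themselves, 14 members (20.9%) were called in the HRE1β-labelled libraries against HRE1α OX, beside 16.7% of all genes. Of these 3 were higher and 11 lower, beside 8.86% and 7.87% of all genes, and 7 of the 11 were Aux/IAA genes. The median log2 fold change of the 24 Aux/IAA members was -0.26, beside 0.00 over all genes. In the AtRH17-labelled libraries against HRE1α OX, 13 members (19.4%) were called, beside 25.8% of all genes, 5 of them higher and 8 lower, beside 13.4% and 12.4%. In the AtRH17-labelled against the HRE1β-labelled libraries, 10 members (14.9%) were called, beside 13.9% of all genes, 8 of them higher and 2 lower, beside 7.42% and 6.45%. The first of these counts was 5 without HRE1α OX replicate 1, beside 8.28% of all genes, and 7 without HRE1α OX replicate 2 or HRE1β OX replicate 1, beside 8.18% and 8.62%. The second was 7 without HRE1α OX replicate 1 or AtRH17 OX replicate 1, beside 16% and 17.9%, and 8 without HRE1α OX replicate 2, beside 15.1%. The third was 6 without AtRH17 OX replicate 2, beside 4.98%. Over all 6 comparisons 34 of the 67 tested members were called at least once. The share of all tested genes called at least once was not counted, so this number has nothing to be set beside.

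Upstream of these families, receptors and co-repressors were called mostly in the AtRH17-labelled libraries. Of 8 tested by edgeR, 1 was higher and 5 lower there and 1 was lower in the HRE1β-labelled libraries against WT, and in HRE1α OX 0 were called and 1 was at an unadjusted p under 0.05. Of all tested genes, 15.3% were higher and 15.5% lower in the AtRH17-labelled libraries. The shares were 11.2% and 11.6% in the HRE1β-labelled libraries and 1.57% and 1.8% in HRE1α OX. The auxin receptor AFB2 had a log2 fold change of -0.36 ± 0.09 (adjusted p = 0.003) in the HRE1β-labelled and -0.57 ± 0.09 (adjusted p = 9.0e-06) in the AtRH17-labelled libraries, and the co-repressor TPL one of -0.51 ± 0.09 (adjusted p = 1.0e-04) in the AtRH17-labelled libraries. Of 14 response factors, 1 was higher and 4 lower in the AtRH17-labelled and 4 were lower in the HRE1β-labelled libraries, and in HRE1α OX 0 were called by edgeR and 2 were at an unadjusted p under 0.05. In the AtRH17-labelled libraries ARF2, a repressing ARF, had a log2 fold change of -0.91 ± 0.09 (adjusted p = 1.3e-09), and NPH4 (ARF7), an activating ARF of phototropism and lateral roots, one of 0.66 ± 0.10 (adjusted p = 3.7e-06).

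Of 10 tested auxin synthesis genes 1 was called against WT, the flavin monooxygenase gene YUC8, with -0.90 ± 0.27 (adjusted p = 0.0156) in the HRE1β-labelled and -1.12 ± 0.28 (adjusted p = 0.00234) in the AtRH17-labelled libraries. Of 14 transport genes 4 were higher and 4 lower in the HRE1β-labelled libraries, beside 11.2% and 11.6% of all genes. In the AtRH17-labelled libraries 0 were higher and 7 lower, beside 15.3% and 15.5%. There the efflux carriers PIN3, PIN4 and PIN7 had log2 fold changes of -0.78 ± 0.09 (adjusted p = 1.9e-08), -0.85 ± 0.10 (adjusted p = 9.5e-08) and -0.74 ± 0.11 (adjusted p = 4.1e-06). In HRE1α OX edgeR called 0 synthesis and 0 transport genes, with 2 and 4 at an unadjusted p under 0.05. Of 5 inactivation genes, ILL2, an auxin conjugate hydrolase, was higher in the AtRH17-labelled libraries by 0.52 ± 0.09 (adjusted p = 1.6e-05). It was the only call against WT in that list, and 1 gene each was at an unadjusted p under 0.05 in HRE1α OX and in the HRE1β-labelled libraries. Over all tested genes, 3.36%, 22.9% and 30.8% were called against WT in HRE1α OX, the HRE1β-labelled and the AtRH17-labelled libraries.

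Of 11 other auxin-induced genes, 1 was higher and 2 lower in HRE1α OX, 2 higher and 3 lower in the HRE1β-labelled and 2 higher and 4 lower in the AtRH17-labelled libraries. In these comparisons in turn, 3.36%, 22.9% and 30.8% of all tested genes were called. ARGOS, a promoter of organ growth, had log2 fold changes of -0.49 ± 0.10 (adjusted p = 0.00156) in HRE1α OX, -0.86 ± 0.10 (adjusted p = 4.5e-08) in the HRE1β-labelled and -1.35 ± 0.10 (adjusted p = 4.6e-12) in the AtRH17-labelled libraries. PRE1, a promoter of cell elongation, had 1.30 ± 0.28 (adjusted p = 0.00464) in HRE1α OX, 1.57 ± 0.28 (adjusted p = 6.9e-05) in the HRE1β-labelled and 2.22 ± 0.27 (adjusted p = 1.7e-07) in the AtRH17-labelled libraries. Of 11 PIF and shade genes, 1 was higher and 5 lower in HRE1α OX, 0 higher and 5 lower in the HRE1β-labelled and 1 higher and 7 lower in the AtRH17-labelled libraries. Over all tested genes the shares higher were 1.57%, 11.2% and 15.3%, and the shares lower 1.8%, 11.6% and 15.5%. PIL1, a shade marker, had 1.45 and 1.73 CPM in the HRE1α OX, 4.77 and 3.21 CPM in the HRE1β-labelled and 2.29 and 1.26 CPM in the AtRH17-labelled libraries, against 8.64 and 6.94 CPM in WT. All libraries of the lines were below WT. PIL1 was higher in the HRE1β-labelled libraries than in HRE1α OX by 1.32 ± 0.31 (adjusted p = 0.00259) and lower in the AtRH17-labelled than in the HRE1β-labelled libraries, with -1.15 ± 0.30 (adjusted p = 0.0096) on the log2 scale. IAA29 was higher in the HRE1β-labelled libraries than in HRE1α OX by 0.59 ± 0.20 (adjusted p = 0.0469), lost without HRE1α OX replicate 1, HRE1α OX replicate 2, HRE1β OX replicate 1 or HRE1β OX replicate 2 (adjusted p up to 0.394) and also with DESeq2. The part of the shade genes in the values of the members was not tested.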

How the data were processed

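Whole seedlings of 4 groups, 2 libraries each, were profiled by QuantSeq 3′ mRNA sequencing. The authors aligned the reads with Bowtie2 to TAIR10 and made the deposited counts per gene from unique and multiple alignments with Bedtools coverage, so near-identical genes can share reads, and the use of strand is not given in the sources used here. Each of 33028 gene names had a whole-number count in every library, and totals were 25657217 to 30606058. A count of 3 was taken as the floor.

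The counts were analysed in R 4.3.3 with edgeR 4.0.16. Genes were filtered by filterByExpr, scaled by TMM and fitted with 1 mean per group over all 8 libraries. Each of 6 comparisons was tested with the quasi-likelihood F test, and p-values were adjusted by Benjamini-Hochberg over 22602 genes. The SE of a log2 fold change is its size divided by the square root of F. The test was tested on simulated data first.

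Alternatives were DESeq2 1.42.0, upper-quartile factors, quantile normalization with an equal-variance test, no filter, a filter of 10 counts in each library, fits of fewer groups, no organelle genes, a replicate block, 2-fold limits and each library left out. The quantile setting used log2(CPM + 1), with CPM taken without TMM factors. For motifs, the window was also limited to the bases before the start. Loci were matched to RefSeq TAIR10.1.

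Full values are given for up to 12 members of each family with an adjusted p under 0.05 in any comparison, by the smallest adjusted p, for the 3 of each family with the highest mean level, and, as counts, for tandem SAUR neighbours. Other members are named by counts or in lists. Of each pathway list at most 5 called genes are named. The members and lists were chosen with earlier results of these data known.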

Additional observations from a re-analysis of the deposited data

How the results depend on the processing

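Of 81 calls of members over the 6 comparisons, 0 changed direction. The quantile setting aside, 24 were kept in every setting and with each library of the 2 groups compared left out. With each library left out in turn, the members called ranged from 0 to 7 in HRE1α OX against WT, from 9 to 16 in the HRE1β-labelled and from 12 to 22 in the AtRH17-labelled libraries against WT, from 5 to 11 in the HRE1β-labelled libraries against HRE1α OX, and in the AtRH17-labelled libraries from 7 to 10 against HRE1α OX and from 6 to 8 against the HRE1β-labelled libraries. In this order of comparisons, the quantile normalization with an equal-variance test called 0 members in each of the 6, where 8, 12, 12, 15, 15 and 9 members were at an unadjusted p under 0.05. It called at most 1 of all 22602 genes in any comparison. A limit of 2-fold with adjusted p left 1, 6, 8, 3, 5 and 2 members, beside 0.496%, 4.88%, 6.72%, 3.22%, 4.94% and 1.84% of all genes, and 2-fold with unadjusted p gave 2, 8, 10, 6, 7 and 3, beside 1.8%, 6.28%, 8.09%, 4.67%, 6.26% and 3.13%. The fit of only the groups compared called 20 members in the AtRH17-labelled libraries against HRE1α OX, where the fit of all groups called 13. DESeq2, upper-quartile factors, no filter, the stricter filter and the fit without organelle genes gave counts within 1.5 times those reported, and so did the motif counts in the shorter window, except that TGTCTC was found there in 1 of 6 GH3 members. Same-numbered libraries of different groups did not deviate together over all tested genes (correlations of -0.0058 to 0.058). Such a correlation cannot exclude a pairing that affects only some genes. With the replicate block 5, 17, 23, 14, 14 and 10 members were called, and 0 calls were lost. Of all genes 3.83%, 23.5%, 31.2%, 17.4%, 26.4% and 14.7% were then called. The 2 libraries per group limit every comparison, and members near the floor of 3 counts cannot show a change.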
